A study of Mus musculus with 4 samples.

Results

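Adh1, Moxd1, H19, Cd52 and Ier3ip1 are 5 of the 31053 genes counted in single thymic invariant natural killer T (iNKT) cells, and they were chosen by a measured value: their lower counts in the earliest precursors, stage 0 cells, of mice that lack Hivep3. That difference is therefore given as a description without a test. What is asked here is where each gene was found in C57BL/6 mice, how restricted it was to precursors, and how far the genotype difference reached into the later stages. All mice were untreated, 8 to 9 weeks old and of the C57BL/6 strain by their labels. Each of the 4 libraries held cells of 1 mouse, 2 mice being wild type and 2 Hivep3-/-. The cells bound the CD1d tetramer loaded with PBS57, a lipid that iNKT receptors recognize, and equal numbers of CD44low and CD44high cells were sorted, which sets part of every share of cells given below.

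iNKT cells arise from double positive thymocytes that carry an invariant T cell receptor. Stage 0 cells display CD24, lose it as they begin to divide, and then become iNKT1, iNKT2 or iNKT17 cells, which make interferon gamma, interleukin 4 and interleukin 17. The 5 genes have unlike roles. Adh1 encodes an alcohol dehydrogenase that oxidizes ethanol and retinol, the vitamin A alcohol from which retinoic acid is made. Moxd1 encodes a copper-dependent monooxygenase related to dopamine beta-hydroxylase. H19 is an imprinted long noncoding RNA, transcribed from the maternal copy in the embryo, and it hosts the microRNA miR-675. Cd52 encodes a short glycopeptide that is held on the lymphocyte surface by a glycosylphosphatidylinositol (GPI) anchor, and Ier3ip1 a small membrane protein of the endoplasmic reticulum and Golgi.

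The genes lie on separate chromosomes of GRCm38 (mm10). Adh1 (ENSMUSG00000074207) spans chr3:138260991-138290698 on the plus strand and Moxd1 (ENSMUSG00000020000) spans chr10:24223517-24302790 on the plus strand. H19 (ENSMUSG00000000031) spans chr7:142575529-142578143 on the minus strand. Cd52 (ENSMUSG00000000682) spans chr4:134082448-134095082 on the minus strand, 13.9 megabases from Hivep3 on the same chromosome. Ier3ip1 (ENSMUSG00000090000) is overlapped on its own strand by a gene model named Hdhd2, so its counts are uncertain to that extent. Adh1 overlaps the antisense gene Gm16559 and Cd52 overlaps Crybg2 on the opposite strand, and only strand tells such reads apart.

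RefSeq promoter windows were at hand for 2 of the 5 genes. The bases of each window before the first coding transcript that starts in it are shown because Adh1 and Moxd1 were both lower in stage 0-like cells and their upstream letters can be compared (the annotated Adh1 gene also has a start further upstream). Capitals mark matches, on either strand, of a loose kappaB motif spelled GGG, then any 5 bases, then CC, since HIVEP zinc finger proteins are known to bind kappaB-like sequences.
Adh1, chr3:138277335-138277493, plus strand, GRCm38.p6: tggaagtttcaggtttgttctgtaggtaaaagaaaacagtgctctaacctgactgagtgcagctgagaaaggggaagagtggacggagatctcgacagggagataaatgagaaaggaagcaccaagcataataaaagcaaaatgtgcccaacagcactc
Moxd1, chr10:24223267-24223516, plus strand, GRCm38.p6: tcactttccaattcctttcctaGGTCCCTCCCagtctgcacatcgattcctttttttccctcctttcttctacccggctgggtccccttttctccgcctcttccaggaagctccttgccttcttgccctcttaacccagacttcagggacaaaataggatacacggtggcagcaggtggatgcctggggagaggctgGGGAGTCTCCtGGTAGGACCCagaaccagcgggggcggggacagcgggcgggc
The stretch before Adh1 held no match and that before Moxd1 held 3, at bases -228 to -219, -53 to -44 and -42 to -33 from the start of transcription. Of 32851 promoter windows of 300 bases, 50.8% held at least 1 match, so the letters alone do not set Moxd1 apart. The whole 300-base window of Adh1 held 0 matches and that of Moxd1 held 7. Neither window held TATAAA, which 13.6% of windows did, and both held CANNTG, which 72.3% did. A match is a run of letters and not a site, and no match says nothing about a factor.

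H19 carries miR-675 in its transcript, and its 2 mature forms are shown with the seed (bases 2 to 8) in capitals.
mmu-miR-675-5p, chr7:142577112-142577133, minus strand: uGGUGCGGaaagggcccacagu
mmu-miR-675-3p, chr7:142577078-142577099, minus strand: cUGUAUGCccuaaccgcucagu
The seeds differ between the arms. The counts below are of H19 RNA and do not measure either arm.

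In all, 19647 cells passed the thresholds on genes, unique molecular identifiers (UMIs, each standing for 1 captured RNA molecule) and mitochondrial share. The libraries held 25518692 to 45022744 UMIs in kept cells. Hivep3 itself did not check the labels: in stage 0-like cells it stood at 235 and 289 counts per 1000000 UMIs of the class (CPM) in the C57BL/6 libraries against 623 and 311 CPM in those labelled Hivep3-/-. The sources used here do not give the disrupted exons, and a 5' count does not show whether an exon is missing, so the labels are taken as given and every direction below rests on them. Xist RNA, made by an inactive X chromosome, numbered 14609 UMIs in C57BL/6 mouse 1 and 3 to 25 in the other libraries, so the 2 wild-type libraries differed in it while that of C57BL/6 mouse 2 resembled the Hivep3-/- libraries. Y-linked genes had 0 UMIs in C57BL/6 mouse 1 and 3568 to 4879 in the other libraries. By these transcripts C57BL/6 mouse 1 read as female and the other mice as male. The paper describes the C57BL/6 mice of its single-cell experiments as female, while its methods say that the study used both sexes. The part of sex in the differences between genotypes was not tested beyond leaving out each library. Any 2 libraries shared 18 to 43 cell barcodes.

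Clusters were named from marker genes, and none of the 5 genes was used to build them. The stage 0-like cluster was led by Itm2a, Cldn10 and Cd24a and held 348 and 116 cells of C57BL/6 mice 1 and 2 and 372 and 396 cells of Hivep3-/- mice 1 and 2. A cluster led by Tnni1, Htra3 and Klrb1a (cluster 8) could not be named from the markers and held 122 and 22 C57BL/6 cells against 271 and 378 Hivep3-/- cells. Another unnamed cluster was led by Gm8369, Gimap7 and Klra3 (cluster 5). The other classes were cycling-like, iNKT2-like, iNKT17-like and iNKT1-like cells, beside 143 double positive thymocyte-like cells.

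Adh1, Moxd1 and H19 were nearly absent from the stage 0-like cells of both Hivep3-/- libraries. Adh1 had 84 and 49 UMIs in C57BL/6 mice 1 and 2 and 3 and 0 UMIs in Hivep3-/- mice 1 and 2. Moxd1 had 59 and 17 UMIs against 1 and 1, and H19 had 45 and 82 UMIs against 1 and 2. The Hivep3-/- sums were the deeper ones, with 4908175 UMIs of all genes against 2385458.

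Per UMI sequenced, Adh1 was 91.2 times as frequent in the C57BL/6 stage 0-like cells, with an exact 95% counting interval of 30.5 to 448. The same ratio was 78.2 (20.9 to 657) for Moxd1 and 87.1 (29.1 to 428) for H19. These intervals cover counting error only, and the 0 UMIs of Adh1 in Hivep3-/- mouse 2 allow a level of up to 1.23 CPM. The level was 58.1 ± 9.26 CPM (SD, n = 2 mice) for Adh1 in C57BL/6 and 0.608 ± 0.860 CPM in Hivep3-/-. It was 29.3 ± 9.76 against 0.407 ± 0.00267 CPM for Moxd1, and 67.9 ± 57 against 0.612 ± 0.292 CPM for H19.

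Cd52 and Ier3ip1 were lower but not absent. Cd52 stood at 882 and 675 CPM in the C57BL/6 libraries and 200 and 188 CPM in the Hivep3-/- libraries, a ratio of 4.21 (3.9 to 4.56). Ier3ip1 stood at 485 and 527 CPM against 247 and 226 CPM, a ratio of 2.11 (1.95 to 2.29). The libraries of the genotypes did not overlap for any of the 5 genes, which is how they were picked. Of all genes tested in these cells 0.666% were called and 0.463% were called lower, and nothing is read from those shares for the 5 genes.

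**Figure D1:**
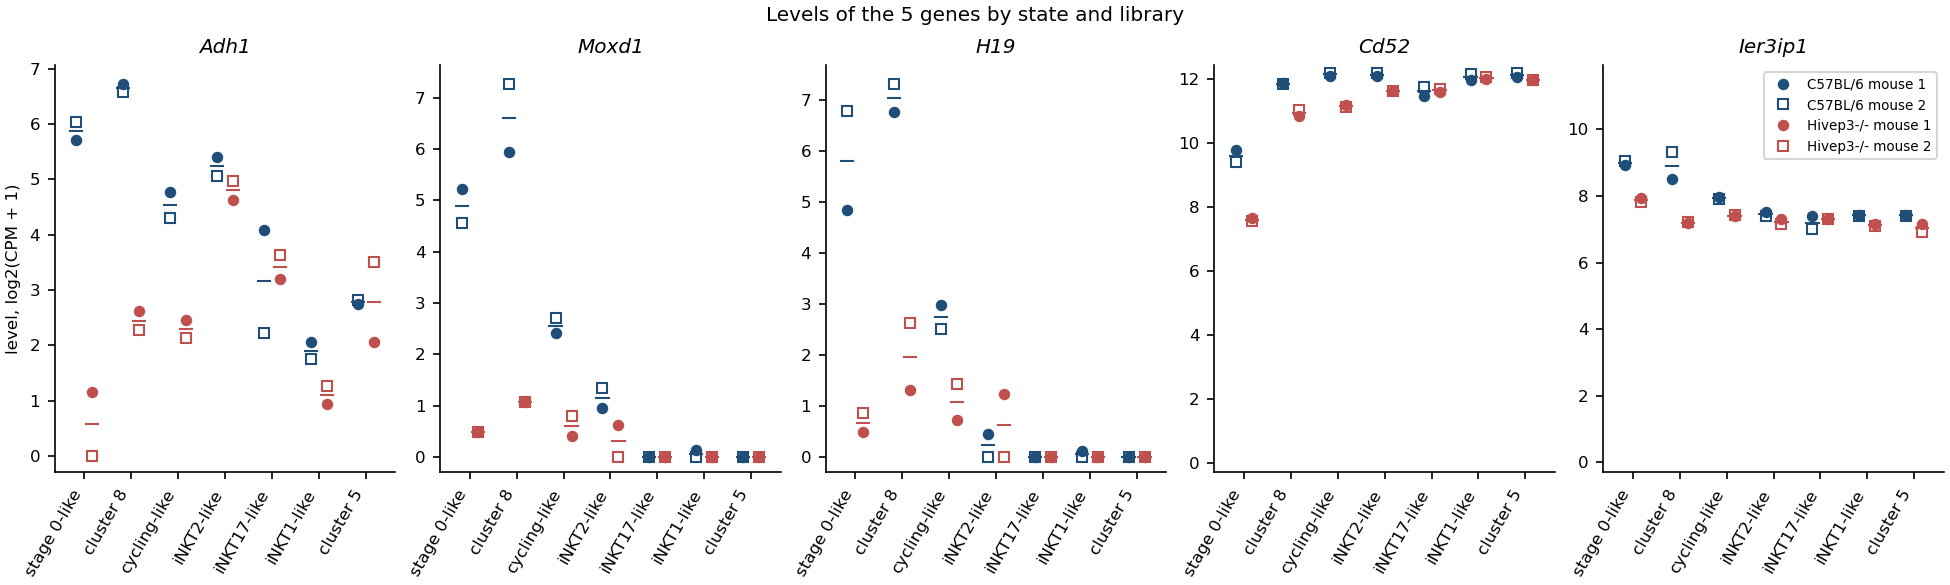
Level of each gene, log2(CPM + 1), in 7 groups of cells. Points are single libraries (filled circle, mouse 1; open square, mouse 2) and short bars are the means of the 2 mice; Adh1, Moxd1 and H19 stand near 0 in the stage 0-like cells of both Hivep3-/- mice, while Cd52 has its lowest C57BL/6 level there.

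UMIs of Adh1, Moxd1 or H19 were detected in a minority of the C57BL/6 precursors, and at this depth a cell without a UMI is not shown to lack the RNA. Adh1 was detected in 8.05% of the stage 0-like cells of mouse 1 (28 of 348 cells, exact 95% interval 5.41% to 11.4%) and 8.62% of those of mouse 2 (10 of 116). Moxd1 was detected in 6.61% and 4.31%, and H19 in 3.45% and 6.03%. In the libraries labelled Hivep3-/- the 3 genes were each detected in 0 to 3 cells of 372 and 396. After every cell was thinned to 2000 UMIs, Adh1 was left in 5.26% and 4.67% of C57BL/6 cells and in 0% of both Hivep3-/- libraries, with 82, 9, 14 and 31 shallower cells of the 4 libraries left out.

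These shares were read against iNKT1-like cells, in which free RNA in the droplets can be the source of a UMI. Adh1 was found in 1.12% and 1.11% of C57BL/6 iNKT1-like cells at a median of 3418 and 4597 UMIs per cell, and Moxd1 and H19 in 1 cell each of 2938 and none of 1980. In the libraries labelled Hivep3-/-, Adh1 was found in 0.806% (exact 95% interval 0.167% to 2.34%) and 0% of stage 0-like cells, at medians of 5622 and 4983 UMIs, and in 0.620% and 0.714% of the iNKT1-like cells of the same libraries, at medians of 6492 and 5757 UMIs. The interval of the first share holds the iNKT1-like share of its own library, and neither share is read as expression.

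The UMIs of the 3 genes were piled up in few cells. In C57BL/6 mouse 2, 1 stage 0-like cell held 26 of the 49 Adh1 UMIs and 1 cell held 37 of the 82 H19 UMIs. In mouse 1 the highest cells held 19 UMIs of Adh1, 9 of Moxd1 and 10 of H19. No stage 0-like cell of the Hivep3-/- libraries held more than 1 UMI of any of the 3. The difference between the mice in H19, 27.6 and 108 CPM, therefore rests on few cells.

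A finer split of the stage 0-like cells placed nearly all UMIs of the 3 genes in cells with little Cd24a. At the higher resolution the cells fell into a Cd24a-high sub-cluster, led by Cd24a, Cd8b1 and Cldn10, and a Cd24a-low sub-cluster, led by Gm43352, Nrgn and Siae. Cd24a stood at 255 and 360 CPM in the first and 15.6 and 15.5 CPM in the second in C57BL/6. Of the C57BL/6 UMIs, the Cd24a-high cells held 3 of Adh1, 0 of Moxd1 and 1 of H19, and the Cd24a-low cells held 130, 76 and 126.

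The Cd24a-low sub-cluster was also the deeper one, with a median of 5903 and 7660 UMIs per C57BL/6 cell against 2011 and 2385, so levels are given per UMI. Adh1 stood at 69.7 ± 9.06 CPM (n = 2) in Cd24a-low and 4.35 ± 6.15 CPM in Cd24a-high cells. Moxd1 stood at 36.3 ± 13.9 CPM against 0, and H19 at 80.9 ± 65.8 against 1.45 ± 2.05 CPM. For Moxd1, 0 UMIs in Cd24a-high cells allow up to 8.70 CPM in mouse 1 and 26.4 CPM in mouse 2. Adh1 was detected in 14.0% and 13.7% of Cd24a-low cells and in 1.24% and 0% of Cd24a-high cells.

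The Cd24a-low cells made up 53.4% and 62.9% of the stage 0-like cells of C57BL/6 mice 1 and 2 and 57.8% and 55.8% of those of Hivep3-/- mice 1 and 2. Within them, Adh1 had 130 UMIs in C57BL/6 and 3 in Hivep3-/- libraries, a ratio of 86.2 (28.8 to 423) per UMI. Moxd1 had 76 against 2, a ratio of 75.6 (20.2 to 635), and H19 126 against 3, a ratio of 83.5 (27.9 to 410). Cd24a itself was higher in the Hivep3-/- cells of this sub-cluster, at 44.6 and 59.97 CPM against 15.6 and 15.5 CPM, and its part in the other differences was not tested.

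**Figure D2:**
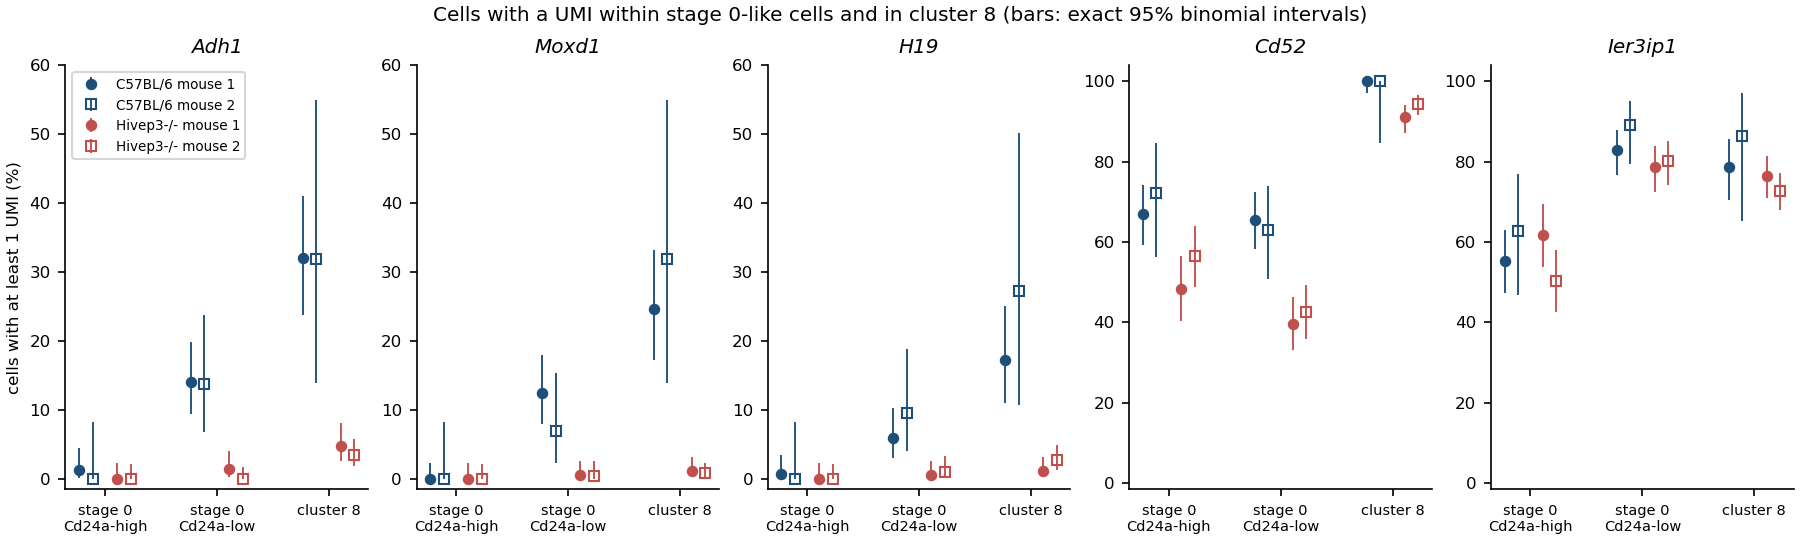
Share of cells with at least 1 UMI of each gene in the Cd24a-high and Cd24a-low stage 0-like cells and in the Tnni1 and Htra3 cluster (cluster 8), by library, with exact 95% binomial intervals. The scale ends near 60% for Adh1, Moxd1 and H19 and near 100% for Cd52 and Ier3ip1; in C57BL/6 the first 3 genes are at 0 to 1.24% of Cd24a-high cells and at 17.2% to 32.0% of cells of cluster 8.

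Cells positive for one of the 3 genes were often positive for another. In C57BL/6 mouse 1, 9 of the 28 Adh1-positive stage 0-like cells also held Moxd1, which 23 of all 348 cells held, and 6 also held H19, which 12 of 348 held. In mouse 2, 4 of the 10 Adh1-positive cells held Moxd1 and 5 held H19, against 5 and 7 of all 116 cells. At least 1 of the 3 was found in 46 and 13 cells, and all 3 in 2 and 3 cells. These cells were deeper than the rest, with medians of 9436 and 13641 UMIs against 3123 and 4948, and the part of depth in the overlap was not tested. None of these stage 0-like cells was among the 5% of cells of highest doublet score, whereas in the Tnni1 and Htra3 cluster 10.2% and 8.33% of the C57BL/6 cells and 5.56% and 12% of the Hivep3-/- cells with a UMI of the 3 genes were. The automatic threshold on these scores had not worked, and the part of doublets was not tested.

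The positive cells held less Cd24a and more Zbtb16 than the negative ones in both mice. Cd24a stood at 4.71 and 0 CPM in positive cells against 88.1 and 88.0 CPM in the other stage 0-like cells of C57BL/6 mice 1 and 2. Zbtb16, which encodes PLZF, the factor that sets the innate program of iNKT cells, stood at 400.1 and 371 CPM against 155 and 129 CPM. Egr2, known to drive Zbtb16, stood at 120.0 and 56.2 CPM against 194 and 167 CPM. Cd52 was higher in the positive cells as well, at 1803 and 1371 CPM against 557 and 461 CPM, and so was Ier3ip1, at 690 and 579 CPM against 413 and 511 CPM. Hivep3 was present in both, at 176 and 202 CPM in positive cells and 256 and 316 CPM in the others.

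The Tnni1 and Htra3 cluster held the highest C57BL/6 levels of Moxd1, H19 and Adh1 of the groups of cells compared, by mean over the 2 mice. Adh1 stood there at 105 and 95.2 CPM in C57BL/6 and 5.15 and 3.82 CPM in Hivep3-/-. Moxd1 stood at 60.8 and 153 CPM against 1.10 and 1.09 CPM. H19 stood at 107 and 157 CPM against 1.47 and 5.19 CPM, with 19 UMIs in 10 cells of Hivep3-/- mouse 2, the largest remnant of H19 in a knockout group. The C57BL/6 values come from 144 cells, and the cluster was not among the classes tested.

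The ratio of C57BL/6 to Hivep3-/- per UMI in this cluster was 23.5 (15.5 to 36.8) for Adh1, 72.2 (33.7 to 184) for Moxd1 and 32.5 (20.8 to 52.9) for H19. Cd52 stood at 3726 and 3664 CPM against 1856 and 2109 CPM, and Ier3ip1 at 365 and 633 CPM against 144 and 148 CPM. The libraries of the genotypes did not overlap for the 5 genes in this cluster. The share of all genes without overlap there was not counted, so nothing is read from it for the 5 genes.

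Outside the precursors the 5 genes parted ways in C57BL/6. The share of a gene's UMIs that fell in stage 0-like cells is set beside their 3.29% share of all C57BL/6 UMIs (mean of the 2 mice). Adh1 had 10.1% ± 4.04 (SD, n = 2) of its UMIs there, Moxd1 22.5% ± 7.85 and H19 34.8% ± 26. Ier3ip1 had 7.86% ± 0.163, and Cd52 0.615% ± 0.234, less than the cells' share of all UMIs. None of the 5 genes had most of its UMIs in stage 0-like cells by this mean.

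Adh1 was spread over iNKT2-like, dividing and early cells. iNKT2-like cells held 36.0% ± 3.72 of its C57BL/6 UMIs and cycling-like cells 37.7% ± 1.90. Its mean level was highest in the Tnni1 and Htra3 cluster (100.2 CPM), then in stage 0-like (58.1 CPM), iNKT2-like (36.9 CPM), cycling-like (22.6 CPM), iNKT17-like (9.83 CPM), cluster 5 (5.9 CPM) and iNKT1-like cells (2.77 CPM), with double positive thymocyte-like cells, at 2 UMIs, left out. iNKT17-like cells, at 16 and 3.68 CPM, overlapped cluster 5, while the other neighbours in that order did not overlap between the 2 mice. The level in stage 0-like cells was 3.45 ± 1.52 times the mean of the 4 other iNKT classes. Adh1 was also among the 10 leading genes of the iNKT2-like cluster, where 21.0% and 22.0% of C57BL/6 cells held a UMI.

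Moxd1 and H19 were rarely found in iNKT1-like, iNKT2-like or iNKT17-like cells. Of 310 C57BL/6 UMIs of Moxd1, 1 fell in iNKT1-like cells and none in iNKT17-like cells or cluster 5, and iNKT2-like cells held 16. Of 428 UMIs of H19, iNKT1-like cells held 1 and iNKT2-like cells 4. Cycling-like cells held 37.6% ± 3.37 of Moxd1 UMIs and 32.6% ± 14.8 of H19 UMIs, and the Tnni1 and Htra3 cluster 32.5% ± 6.29 and 31.3% ± 9.39. Cycling-like cells also held 33.2% of all C57BL/6 UMIs, close to their shares of both genes, while the Tnni1 and Htra3 cluster held 1.55%. In iNKT17-like cells 0 UMIs allow up to 2.28 CPM in mouse 1 and 2.76 CPM in mouse 2. The level in stage 0-like cells was 19.9 ± 10.1 times the mean of the other 4 classes for Moxd1, and 53.8 ± 54.8 times for H19. The H19 ratio was 15.0 in mouse 1 and 92.5 in mouse 2. Its mean was 9.35 where libraries were clustered uncorrected. It was 7.1 where cells were clustered anew after those of highest doublet score were removed. No C57BL/6 stage 0-like cell with a UMI of H19 was among those removed, so cells changed group in that clustering. The 103 double positive thymocyte-like cells of C57BL/6 mouse 1 held 7 UMIs of Moxd1, all in 1 cell.

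Cd52 went against the label of a precursor gene. Its mean C57BL/6 level was lowest in stage 0-like cells, 778 ± 147 CPM, and it stood at 2092 ± 71.1 CPM in double positive thymocyte-like cells and between 3143 and 4539 CPM in the other groups. The level in stage 0-like cells was 0.191 ± 0.0504 times the mean of the other 4 iNKT classes. Cd52 was detected in 66.4% of the stage 0-like cells of each C57BL/6 mouse and in 99.6% or more of their iNKT1-like, iNKT2-like and cycling-like cells.

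Ier3ip1 (GRCm38 chromosome 18, bases 76930017 to 76941612, plus strand) was found in every group and was highest in early cells. It stood at 506 ± 29.3 CPM in C57BL/6 stage 0-like cells, 499 ± 190 CPM in the Tnni1 and Htra3 cluster and 245 ± 6.91 CPM in cycling-like cells. Double positive thymocyte-like cells, with 31 UMIs, stood at 272 ± 142 CPM. In iNKT2-like, iNKT17-like, iNKT1-like cells and cluster 5 the mean lay between 148 and 176 CPM, and the libraries of these groups lay between 129 and 184 CPM. The level in stage 0-like cells was 2.75 ± 0.345 times the mean of the other 4 classes.

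**Figure D3:**
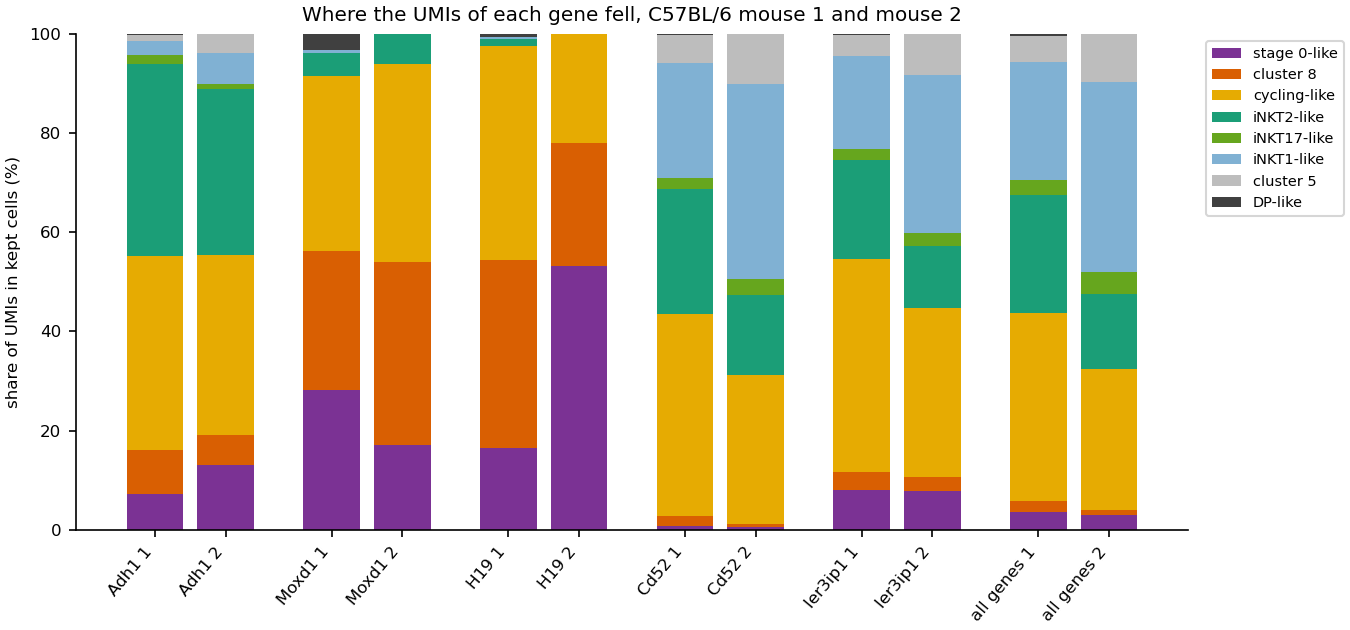
Share of each gene's UMIs that fell in each group of cells (%), in C57BL/6 mouse 1 and mouse 2, with the UMIs of all genes in the last pair of bars. Stage 0-like cells held 7.29% and 13% of Adh1 UMIs, 28.1% and 17% of Moxd1 UMIs and 16.4% and 53.2% of H19 UMIs in mice 1 and 2.

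The genotype difference was then tested in the 4 later classes, which the choice of genes did not use, although dividing cells follow stage 0 closely and the same mice gave both. Counts were summed per library and compared with edgeR's two-sided quasi-likelihood test, with Benjamini-Hochberg adjustment over all genes of the class. All 5 genes passed the filter on low counts in cycling-like cells, and Moxd1 and H19 did not pass it in iNKT2-like, iNKT17-like and iNKT1-like cells. A gene that passes through its high group only is prone to differ, so the counts of genes called are read with that in mind.

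In cycling-like cells Adh1, Cd52 and Ier3ip1 fell in the knockout, where 2.93% of 10379 genes were called and 1.43% were called lower. Moxd1 was called lower too, but it passed the low-count filter through the C57BL/6 libraries alone, so its call is given as a value and not as support. Adh1 stood at 26.4 and 18.9 CPM in the C57BL/6 libraries and 4.52 and 3.38 CPM in the Hivep3-/- libraries. Its log2 difference was -2.72 (SE 0.291, edgeR adjusted p = 0.00614). Moxd1 stood at 4.33 and 5.5 CPM against 0.323 and 0.750 CPM, from 114 and 5 UMIs, with a log2 difference of -3.17 (SE 0.512, edgeR adjusted p = 0.0255). Without C57BL/6 mouse 1 or mouse 2, Moxd1 no longer passed (edgeR adjusted p = 0.0810 and 0.0890).

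Cd52 stood at 4395 and 4684 CPM in cycling-like cells of C57BL/6 and 2352 and 2238 CPM in those of Hivep3-/-, a log2 difference of -1.15 (SE 0.101, edgeR adjusted p = 0.00360). With no correction between libraries before clustering its log2 difference was -0.55 (edgeR adjusted p = 0.115). Ier3ip1 stood at 250.2 and 240.4 CPM against 166 and 170.3 CPM, a log2 difference of -0.71 (SE 0.120, edgeR adjusted p = 0.0300), and did not pass without C57BL/6 mouse 1 or mouse 2 (edgeR adjusted p = 0.271 and 0.176) or with no correction between libraries (0.0957). H19 stood at 6.91 and 4.68 CPM against 0.645 and 1.69 CPM. Its log2 difference of -2.35 (SE 0.481) did not pass (edgeR adjusted p = 0.0554). The edgeR adjusted p was 9.68e-06 with no low-count filter and 0.0915 with a replicate block. When 1 library was left out, the log2 difference ran from -3.39 to -1.94. H19 also passed the low-count filter through its C57BL/6 libraries, so its difference is given as a value and not as support.

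The clusters behind the cycling-like class were mixed in other proportions in each genotype. The largest (cluster 3, led by Ccnb2 and Il13) made up 83.6% and 80.2% of it in C57BL/6 and 68.2% and 62.9% in Hivep3-/-, and cluster 12, led by Mki67, made up 1.9% and 3.38% against 15.5% and 5.09%. Cluster 3 was named cycling-like by its mean marker level and not by its leading genes. All 16 cycling-like markers were detected in it, but its highest marker score was for iNKT2-like cells. Its leading genes included the iNKT2-like markers Il13 and Ccr9, which were not used for naming. Within cluster 3 Adh1 stood at 27.0 and 22.2 CPM against 5.74 and 4.23 CPM, and Moxd1 at 2.97 and 2.95 CPM against 0 and 0.905 CPM. H19 overlapped there, at 6.08 and 1.56 CPM against 0.883 and 2.11 CPM. In the histone-led cluster (cluster 10, led by Hist1h2ap and Pclaf) H19 stood at 11.7 and 19 CPM against 0 and 1.13 CPM and Moxd1 at 11.7 and 17.5 CPM against 2.39 and 0.566 CPM.

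None of the genes tested was called in iNKT2-like, iNKT17-like or iNKT1-like cells, where 0.211%, 0.0656% and 0.646% of all genes were called and 0.169%, 0.0263% and 0.197% were called lower. At an unadjusted edgeR p under 0.05 stood Adh1, Cd52 and Ier3ip1 in iNKT2-like cells and Adh1 and Ier3ip1 in iNKT1-like cells, all lower in Hivep3-/-. Of all genes tested, 851 of 9492 in iNKT2-like cells and 882 of 10686 in iNKT1-like cells stood under that threshold, so little is read from these values. DESeq2 called 1 of them, Cd52 in iNKT2-like cells. In simulated data with the spread of the iNKT2-like libraries, 64% of 2-fold changes were called, so smaller differences can be missed.

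Adh1 was still detected in iNKT2-like cells of the knockout. It stood at 41.5 and 32.4 CPM in the C57BL/6 libraries and 23.8 and 30.6 CPM in the Hivep3-/- libraries, from 87 and 128 UMIs in 16.2% and 19.8% of cells. The libraries did not overlap by a narrow margin, and the log2 difference was -0.54 (SE 0.210, edgeR adjusted p = 0.505). In iNKT17-like cells the libraries overlapped, at 16 and 3.68 CPM against 8.22 and 11.5 CPM. In iNKT1-like cells Adh1 stood at 3.18 and 2.35 CPM against 0.921 and 1.4 CPM, without overlap, a log2 difference of -1.35 (SE 0.406) that did not pass (edgeR adjusted p = 0.336). In Hivep3-/- mice iNKT2-like cells held 60.8% ± 4.02 of all Adh1 UMIs, and stage 0-like cells 1% ± 1.41.

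Cd52 in iNKT2-like cells stood at 4329.8 and 4699 CPM in C57BL/6 and 3138 and 3177 CPM in Hivep3-/-, with a log2 difference of -0.61 (SE 0.130, edgeR adjusted p = 0.146). It was 0.0303 with DESeq2, and over 11 alternatives the adjusted p ran from 0.000264 to 0.637. In iNKT1-like cells Cd52 overlapped, at 4025 and 4561 CPM against 4079 and 4314 CPM, a log2 difference of -0.10 (SE 0.159). Ier3ip1 differed by -0.33 (SE 0.129), 0.01 (SE 0.186) and -0.36 (SE 0.121) on the log2 scale in iNKT2-like, iNKT17-like and iNKT1-like cells.

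The difference of Cd52 was larger in cycling-like than in iNKT1-like cells when this was tested directly. The interaction term was -1.06 on the log2 scale (SE 0.0922, edgeR adjusted p = 4.2e-05), in a comparison that called 6.67% of 11312 genes and 3.25% in this direction. It passed under every alternative that kept all 4 libraries, with the highest edgeR adjusted p, 0.0107, where libraries were not corrected. When 1 library was left out, the term ran from -1.16 to -0.95. Adh1 (-1.40, SE 0.427, edgeR adjusted p = 0.0724) and Ier3ip1 (-0.36, SE 0.110, edgeR adjusted p = 0.0744) did not pass. For Moxd1 and H19, with 1 UMI each in all iNKT1-like cells, the interaction could not be judged.

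**Figure D4:**
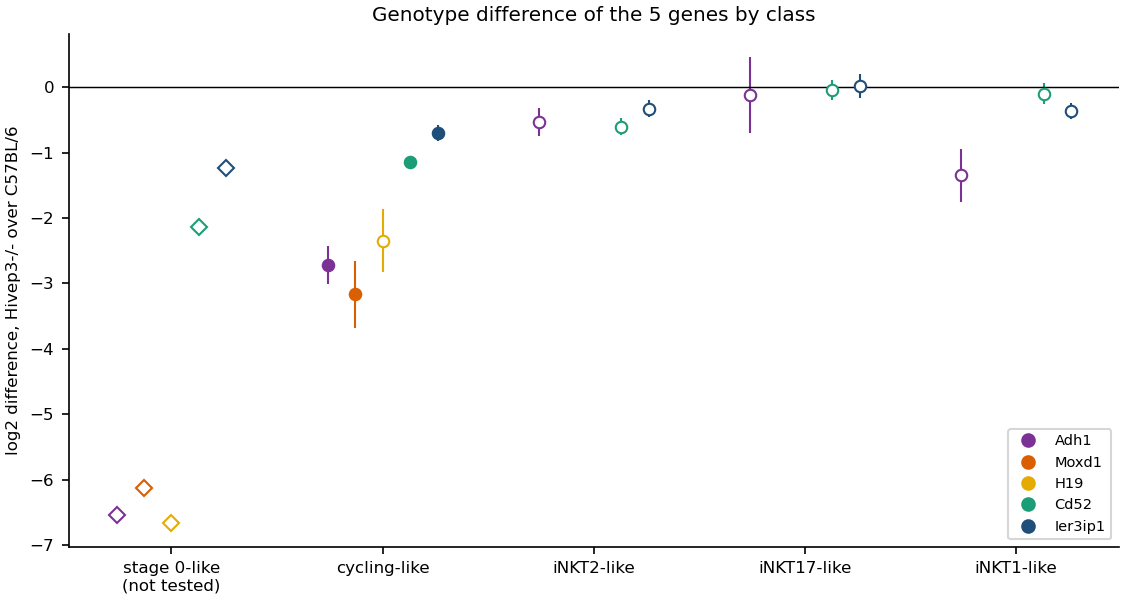
Log2 difference (Hivep3-/- over C57BL/6) of the 5 genes in stage 0-like cells (diamonds, not tested) and in the 4 later classes (circles with the standard error of the fit; filled where the edgeR adjusted p is under 0.05). Adh1, Moxd1, Cd52 and Ier3ip1 are filled in cycling-like cells and no point is filled in iNKT2-like, iNKT17-like or iNKT1-like cells. Moxd1 and H19 were too low to be tested in those 3 classes. In cycling-like cells both passed the low-count filter through their C57BL/6 libraries, so their points there are not read as support.

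Other genes of each member's pathway mostly did not pass the test. Over all genes tested, 2.93% were called in cycling-like cells and 0.666% in stage 0-like cells. Of 29 other genes of alcohol and retinol metabolism and retinoid receptors, 12 were tested in cycling-like cells and 1 was called: Aldh2, the mitochondrial aldehyde dehydrogenase, at 56.8 and 39.6 CPM in C57BL/6 and 19.4 and 13.7 CPM in Hivep3-/- (log2 difference -1.74, SE 0.251, edgeR adjusted p = 0.0185). In stage 0-like cells 7 genes of this list were tested, none was called lower and 1 was called higher: Rara, a retinoic acid receptor, at 22.7 and 19.8 CPM in C57BL/6 and 69.4 and 49.5 CPM in Hivep3-/- (log2 difference 1.32, SE 0.254, edgeR adjusted p = 0.0443). Aldh2 was not called there, at 33.2 and 44.9 CPM against 24.7 and 31.9 CPM. The median log2 difference of the 12 genes tested in cycling-like cells was -0.40, against 0.03 over all genes tested. None of 9 other copper monooxygenase and copper transport genes (6 tested) was called. Of 19 genes of the imprinted network in which H19 is known, 5 were tested in cycling-like cells and none was called, with a median of -1.01.

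Among 18 other GPI-anchored lymphocyte surface proteins, 16 were tested in cycling-like cells, 2 were called lower and 1 higher. Of all genes tested there, 2.93% were called and 1.43% were called lower, and the list as a set was not tested. Ly6a, also known as Sca-1, stood at 188 and 284 CPM against 84.5 and 40.3 CPM (log2 difference -2.11, SE 0.340, edgeR adjusted p = 0.0251), and Ly6e at 2138 and 2325 CPM against 1512 and 1426 CPM (log2 difference -0.77, SE 0.106, edgeR adjusted p = 0.0158). Cd160, a receptor of natural killer and T cells, rose from 47.9 and 53.0 to 129 and 95.3 CPM (log2 difference 0.98, SE 0.174, edgeR adjusted p = 0.0350). Of 24 genes that build and attach GPI anchors, 23 were tested and 0 called, with a median log2 difference of 0.02. Of 22 endoplasmic reticulum to Golgi transport and unfolded protein response genes set beside Ier3ip1, 22 were tested and 0 called. No gene of the other 5 lists was called in stage 0-like cells, and no gene of the 6 lists in iNKT2-like, iNKT17-like or iNKT1-like cells.

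Most genes next to the members on the chromosome were undetected or not called. Adh6a, beside Adh1 and of the same enzyme family, had 0 UMIs in all 5 iNKT classes, and so had Gm15271 beside Moxd1 and Gm33148 beside H19. The neighbour 0610031O16Rik of Adh1 had 0 to 5 UMIs in a class of any library. Stx7, on the other side of Moxd1, stood at 41.2 and 43.6 CPM against 33.3 and 39.7 CPM in stage 0-like cells, and Mrpl23, on the other side of H19, at 197 and 177 CPM against 175 and 198 CPM. Skor2 beside Ier3ip1 had 1 UMI, and the annotated Hdhd2 gene on its other side stood at 48.5 and 64.7 CPM against 51.5 and 43.8 CPM. Neither Stx7, Mrpl23 nor Hdhd2 was called in any tested class.

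Beside Cd52, Ubxn11 was called lower in cycling-like cells, at 12.9 and 20.2 CPM in C57BL/6 and 5.48 and 6.57 CPM in Hivep3-/- (log2 difference -1.58, SE 0.314, edgeR adjusted p = 0.0491). Zfp683, which encodes the factor Hobit, lies on the other side and stood at 3.28 and 4.54 CPM against 1.94 and 1.31 CPM (edgeR adjusted p = 0.146). In iNKT1-like cells Ubxn11 stood at 26.6 and 30.3 CPM against 28.2 and 29.8 CPM.

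Genes with a like pattern were sought over the 10 C57BL/6 sums of 5 iNKT classes and 2 mice, as a description in which the points share libraries. For Adh1 the highest Pearson correlations of log2(CPM + 1) were with Sptbn1 (0.97), Dnmt3a (0.96), Sall2 (0.96), Supt4a (0.96) and Pafah1b3 (0.96). For Moxd1 they were Hmga2 (0.99), Pop7, Cisd2, Gm43650 and Znhit6, and for H19 Padi4 (0.99), Yae1d1, Praf2, Uchl1 and Tsg101. Hmga2, a chromatin protein of early embryonic and stem cells, stood at 15.5 CPM in stage 0-like, 3.04 CPM in cycling-like and 0.751 CPM in iNKT2-like cells. Padi4, an arginine deiminase, stood at 34.0 CPM, 3.78 CPM and 0.683 CPM, and it was also among the 5 for Ier3ip1, with Pcyox1l, Gtpbp4, Mzt1 and Uchl1. Cd52 went with Psmb10 (0.99), Cyba, Tapbp, Ppp3ca and Gbp2, which were likewise lowest in stage 0-like cells.

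Markers of other cell types were read in the stage 0-like cells for the levels they could add. Of 8 mesenchymal markers none had a UMI in either C57BL/6 library or in Hivep3-/- mouse 2, and Col1a1 had 1 UMI in Hivep3-/- mouse 1. The 10 double positive thymocyte markers summed to 63.3 and 76.6 CPM in C57BL/6 and 104.2 and 133 CPM in Hivep3-/- libraries, with 7 to 9 of them detected, Rag2 at 0 in all 4 libraries and Rag1 at 0 in 3. The 6 gamma-delta T cell markers summed to 15.4 and 31.7 CPM against 2.43 and 2.46 CPM, with the defining gene Trdc at 0 in 3 libraries. The 8 thymic epithelial markers summed to 45.5 and 43.6 CPM against 79.9 and 74.9 CPM, and the 10 B cell markers to 23.3 and 21.1 CPM against 7.3 and 15.6 CPM. The part of these lists in the differences was not tested. The 9 myeloid markers summed to 155 to 173 CPM. In each library 2 to 5 of the thymic epithelial, 2 to 3 of the myeloid and 3 to 5 of the B cell markers were detected. The thymic epithelial markers Epcam and Krt18 had UMIs in all 4 libraries. So had the myeloid markers Cst3 and Cd68 and the B cell markers Cd79b, Ighm and Cd74. At 0 in all 4 libraries were the thymic epithelial markers Psmb11, Krt8 and Krt5. So were the myeloid markers Lyz2, Adgre1, Itgax and S100a8 and the B cell markers Cd79a and Pax5.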

How the data were processed

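Thymic CD1d tetramer-binding cells of 2 C57BL/6 and 2 Hivep3-/- mice were measured by droplet 5' sequencing (10x Genomics), 1 library per mouse. The deposited values are UMI counts for each gene and barcode. The submitters' processing notes name Cell Ranger 3.1.0, Seurat 3.1.4 and the build mm10. The genes and gene lists were chosen with earlier results of these data known.

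Cells were kept with 500 to 4100 genes, at least 1000 UMIs and under 6% mitochondrial UMIs. Counts were clustered in R 4.3.3 with Seurat 5.3.0 (2000 variable genes without the 5 members, 30 components, mutual nearest neighbour correction over 20 neighbours, resolution 0.8, and 1.2 for the sub-clusters, a use chosen after seeing the data). The cluster naming rule was also set after seeing the data. Scrublet (scanpy 1.11.5) marked 0 to 5 cells per library and had not worked, so no doublet was removed. Levels are UMIs per 1000000 UMIs (CPM) of the summed class. Genotypes were compared per class with edgeR 4.0.16 (quasi-likelihood, filterByExpr, TMM) on sums per library of 757497 to 19535038 UMIs. The paper states that its C57BL/6 mice were bought from a supplier, while the backcrossed Hivep3-/- mice were a gift of another investigator. Source of the mice therefore went with genotype, and its part in the differences was not tested. Intervals are exact binomial ones at 95% and cover counting error only. The test was checked on simulated counts. The genes named are the 5 members, Hivep3, called genes of the pathway lists, the 5 genes of most similar pattern among those with at least 50 C57BL/6 UMIs, and flanking genes. Other genes named (cluster leaders, markers, Cd24a, Zbtb16 and Egr2) were chosen after their values were seen. Alternatives were RLE scaling, DESeq2 1.42.0, no low-count filter, a replicate block, each library left out, resolution 1.2, no correction, and the 5% of cells of highest doublet score removed. A gate of at least 2 UMIs each of Cd24a and Itm2a was set against the stage 0-like cluster. Sequences are from RefSeq and positions from GENCODE vM21.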

Additional observations from a re-analysis of the deposited data

Results flagged for a closer look

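Cd52 differed between genotypes to a different extent in 2 classes of the same mice, by a test of the difference itself. The log2 difference was -1.15 in cycling-like cells and -0.10 in iNKT1-like cells, and the interaction term was -1.06 (edgeR adjusted p = 4.2e-05). Cd52 was lower in both Hivep3-/- libraries than in both C57BL/6 libraries in cycling-like cells, and the libraries overlapped in iNKT1-like cells. In the fits without correction between libraries the term was -0.49.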

How the results depend on the processing

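With no low-count filter 240 genes were called in stage 0-like cells (against 59), 1107 in cycling-like cells (304), 331 in iNKT2-like cells (20), 92 in iNKT17-like cells (5), 475 in iNKT1-like cells (69) and 1360 in the interaction (755). DESeq2 called 72 in iNKT2-like cells, 8 in iNKT17-like cells, 165 in iNKT1-like cells and 322 in the interaction. RLE scaling called 39 in stage 0-like cells. With no correction between libraries 24 were called in stage 0-like cells, 84 in cycling-like cells and 78 in the interaction, and 26 in stage 0-like cells with the highest doublet scores removed. Leaving out 1 library gave 19 to 74 calls for the stage 0-like class, 93 to 410 for the cycling-like one, 10 to 43 for iNKT2-like cells, 38 to 135 for iNKT17-like cells, 37 to 146 for iNKT1-like cells and 147 to 1144 for the interaction; the lone library is then assumed to vary like the other genotype. The mice carry numbers that repeat between genotypes, and same-numbered libraries correlated at 0.184 to 0.263 in their deviations, but with 2 pairs and no shared litter or batch in the labels they share only a number. With the number as a replicate block 419 genes were called for the stage 0-like class, 250 for the cycling-like one, 107 for iNKT2-like cells, 56 for iNKT17-like cells and 88 for iNKT1-like cells, and Cd52 passed in iNKT2-like cells (adjusted p = 0.0431).

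The share of C57BL/6 UMIs in precursors moved most when precursors were taken as cells with at least 2 UMIs each of Cd24a and Itm2a (20 and 11 C57BL/6 cells). It was then 0% for Adh1, 0.5% for Moxd1, 0% for H19, 0.0633% for Cd52 and 0.213% for Ier3ip1. So few of the 7231 and 3651 kept C57BL/6 cells hold little of any gene, so these shares are not read as absence from precursors. For Ier3ip1 it was 8.06% at resolution 1.2, 7.26% with no correction and 7.60% with the highest doublet scores removed. For H19, at 34.8%, it was 9.7% with no correction and 16.4% to 53.2% when 1 library was left out. It was 10.2% when cells were clustered anew without those of highest doublet score. No C57BL/6 stage 0-like cell with a UMI of H19 was among those removed, so cells changed group in that clustering. Without the cell of most UMIs in each library, a setting added once the data had been seen, the shares of Adh1, Moxd1 and H19 were 6.14%, 18.3% and 25.9%. The 5 genes were picked for their fall in stage 0 cells, so the sign of the difference there is not read as support. The log2 difference in stage 0-like cells stayed below 0 for all 5 genes under every alternative run. It ran from -9.57 to -5.65 for Adh1 (a fitted value of a gene at 0 in 1 library), -6.41 to -5.72 for Moxd1 and -7.47 to -5.49 for H19 when 1 library was left out. With no correction it was -4.79 for H19 and -1.89 for Cd52, and with the highest doublet scores removed -4.91 for H19 and -1.92 for Cd52. Adh1 was called in cycling-like cells under all 11 alternatives, Cd52 under 10 and Ier3ip1 under 8. Moxd1 was called under 9 and H19 under 4. Both passed the low-count filter through their C57BL/6 libraries, so their tallies are not read as support. The causes were not tested.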
